A study of Mus musculus with 6 samples.

Results

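The 10 mature miRNAs of the miR-143 and miR-145a locus and of the miR-199 and miR-214 loci, which mark stellate and other stromal cells in liver, were followed in liver of healthy mice of both sexes. They were taken by name from the deposited miRNA table, where all 10 listed names were found among 1907 distinct miRNAs. The groups were 3 female and 3 male C57BL/6N mice, 12 weeks old, labelled littermates in normal health and fed a standard chow diet, with no genetic change or treatment in either group. Small RNA libraries were made from total RNA of whole liver, a single library per animal. The study is about sex and acute liver injury and about SAB, the product of Sh3bp5 on the outer membrane of mitochondria. Here the question is whether these stromal miRNAs differ between the sexes before any injury.

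Stellate cells lie between hepatocytes and the sinusoid wall, store vitamin A, and turn into collagen-making myofibroblasts after injury. miR-143 and miR-145a are made from a shared transcript in smooth muscle cells, pericytes and fibroblasts, and miR-145 is known to favour the contractile state of smooth muscle. The miR-199a and miR-214 hairpins are processed in part from Dnm3os, a long noncoding RNA of mesenchymal cells that Twist1 switches on. miR-199 and miR-214 are known to increase in stellate cells during fibrosis. A hairpin yields a 5p and a 3p arm, of which usually 1 is kept as the guide and the other is mostly degraded. In whole liver, fewer stromal cells and less of a miRNA per cell cannot be told apart.

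The mature sequences of the miR-199 and miR-214 members are shown because they decide which of the members can be read apart. RefSeq (GRCm38.p6) gave a sequence for 5 of the 10 members. Capitals mark the seed, bases 2 to 8, which pairs with targets.
miR-199a-5p: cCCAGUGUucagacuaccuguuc
miR-199a-3p: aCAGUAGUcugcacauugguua
miR-199b-3p: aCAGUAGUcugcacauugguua
miR-214-3p: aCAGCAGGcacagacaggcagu
miR-214-5p: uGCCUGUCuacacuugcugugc
miR-199a-3p and miR-199b-3p are the same 22 bases, so a read of this arm cannot be given to either name. The 5p and 3p arms of miR-199 have different seeds, and the seed of miR-214-3p differs from both. The search for other holders of these seeds covered the 1623 miRNAs of the table with a RefSeq sequence, so it left out miR-199b-5p. At the position of miR-199b-5p, the Mir199b hairpin printed below carries the seed of miR-199a-5p. Among the miRNAs searched, the only other holder of any of these seeds was miR-761, which has the seed of miR-214-3p. It had 1 count in female replicate 1 and 0 counts in each of the other libraries.

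The shared 3p arm is encoded by 3 hairpins, printed below with that arm in capitals.
Mir199a-1: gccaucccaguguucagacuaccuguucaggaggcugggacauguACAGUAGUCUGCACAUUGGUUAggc
Mir199a-2: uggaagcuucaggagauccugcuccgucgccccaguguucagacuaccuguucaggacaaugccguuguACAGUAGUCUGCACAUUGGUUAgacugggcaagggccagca
Mir199b: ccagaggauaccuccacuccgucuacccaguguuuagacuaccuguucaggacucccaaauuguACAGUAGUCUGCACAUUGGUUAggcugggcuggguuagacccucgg
Both miR-199a hairpins hold the miR-199a-5p sequence, and Mir199b does not. Mir199a-1 lies on chromosome 9 from 21496495 to 21496564 (mm10, minus strand), opposite an intron of the dynamin gene Dnm2. Mir199b lies on chromosome 2 from 32318460 to 32318569 (plus strand), opposite an intron of Dnm1. Mir199a-2 (162217814 to 162217923) and Mir214 (162223368 to 162223477) lie on the plus strand of chromosome 1, 5444 bases apart, within exons of Dnm3os and opposite an intron of Dnm3. The table gives each mature miRNA 1 position, so counts of miR-199a cannot be divided between its 2 hairpins.

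Deposited counts summed to between 3285249 and 5756418 in female libraries and between 4617647 and 16444674 in male libraries. The hepatocyte miR-122-5p was the most abundant marker of any cell type examined, with an average of 315840 CPM in female liver and 364079 CPM in male liver. CPM, here and below, are counts per 1000000 counts of a library after TMM adjustment. Striated muscle markers summed to 16.5 to 34.9 CPM in females and 19.1 to 34.5 CPM in males, and pancreas markers to 3.04 to 5.12 CPM in females and 1.59 to 2.13 CPM in males. The 10 stromal miRNAs together took between 1.10 and 1.39% of the counts of a library.

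The 10 members spanned a 3693-fold range of mean level. Mature lengths run from 21 to 23 bases, so counts were compared without scaling for length. miR-143-3p, the main arm of its hairpin, held 63.4 to 68.8% of the members' counts and ranked 19th of the 370 miRNAs tested. The shared miR-199 3p sequence came next, followed by miR-145a-5p and miR-199a-5p at closely similar levels. Below these stood the passenger arms miR-145a-3p and miR-143-5p, then miR-199b-5p and, lowest, the arms of miR-214. Between neighbours in this order, miR-145a-5p and miR-199a-5p changed places in 1 of 6 libraries, with count ratios from 0.945 to 1.53. The pair miR-145a-3p and miR-143-5p also changed places in 1 of 6, with ratios from 0.844 to 1.42, as did miR-199b-5p and miR-214-3p, with ratios from 0.765 to 1.80. Each other neighbour pair kept its order in 6 of 6 libraries.

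**Figure D1:**
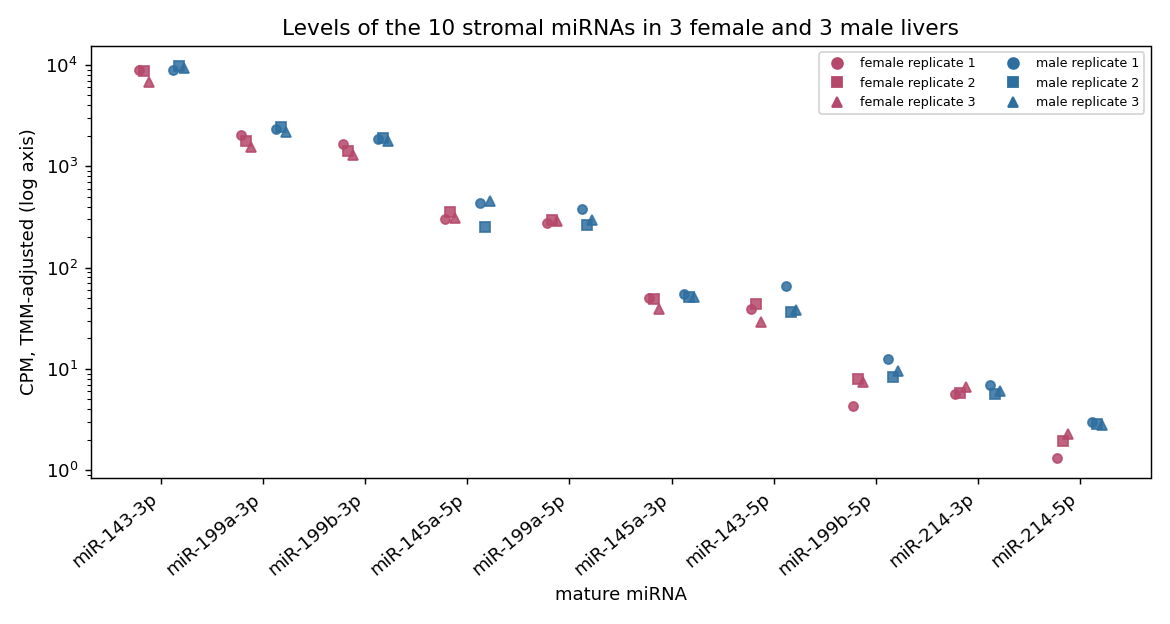
CPM (TMM-adjusted, log axis) of the 10 stromal miRNAs in order of mean level, with 1 point per library, females left and males right. Levels run over more than 3 decades, from miR-143-3p at 6759 to 9855 CPM to miR-214-5p at 1.32 to 3.01 CPM, and the steps between miRNAs are mostly larger than the distance between the sexes.

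No member passed the threshold between the sexes. Of the 10 tested, 0 had an adjusted p under 0.05 in edgeR's quasi-likelihood test with Benjamini-Hochberg adjustment over 370 miRNAs, where 6.76% of all tested miRNAs passed, 3.51% with lower and 3.24% with higher levels in females. DESeq2 and limma-voom also called 0 members. At an unadjusted p under 0.05 in edgeR there were 3 members, miR-199a-3p, miR-199b-3p and miR-199b-5p, all with lower female means, beside 8.92% of all tested miRNAs with that p and lower values in females. All 10 had a negative log2 fold change (female over male), as did 51.9% of all tested miRNAs, with a median of -0.27 beside -0.01 over all tested. Apart from miR-214-5p, whose female counts were all under 10, the median of 9 members was -0.24. The 10 are not independent measurements, since arms share a hairpin, hairpins share a transcript and 2 rows share a sequence. With library totals in place of TMM factors, which moved the median of all tested miRNAs to 0.13, the members' median was -0.15 and 9 of 10 were negative. With upper-quartile factors those medians were -0.10 and -0.38.

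**Figure D2:**
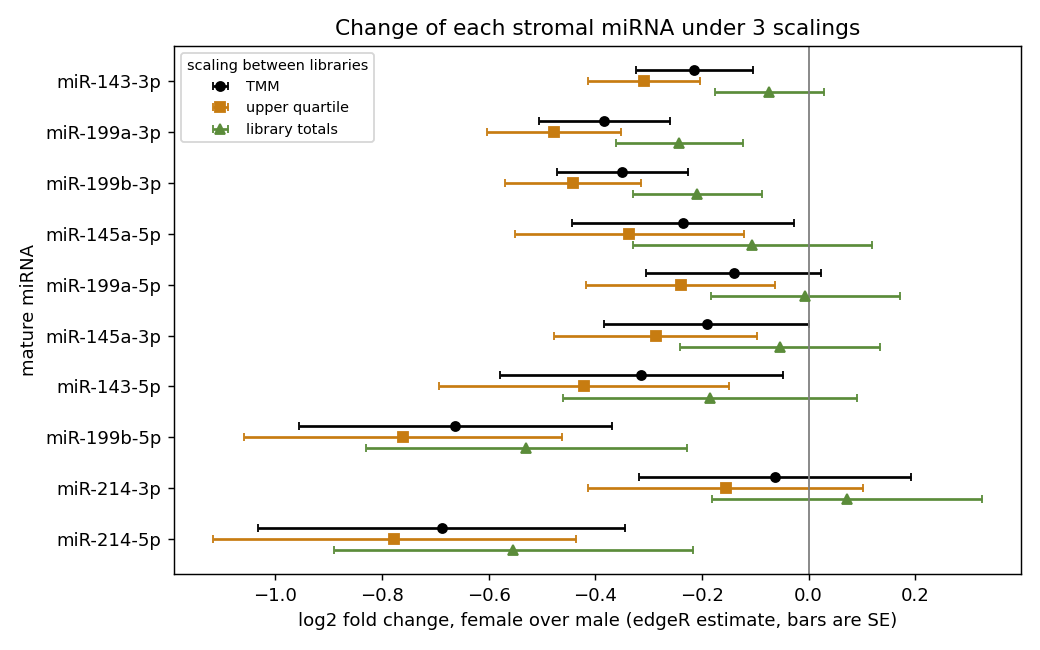
Log2 fold change (female over male, horizontal axis) of each stromal miRNA as estimated by edgeR under TMM, upper-quartile and library-total scaling, with SE bars. Upper-quartile factors move every member to the left and library totals move every member to the right, where miR-214-3p turns positive at 0.07.

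The locus of miR-143 and miR-145a lies on chromosome 18 (mm10, minus strand), with Mir143 from 61649196 to 61649258 and Mir145a from 61647825 to 61647894, 1301 bases apart. No other annotated gene contains either hairpin. miR-143-3p had 8837, 8647 and 6759 CPM in the female libraries, against 8951, 9855 and 9312 CPM in the male libraries. Every female value lay below every male value, but female replicate 1 lay just under male replicate 1, and female replicate 3 stood apart at the low end. Its log2 fold change of -0.21 had an SE of 0.11 and an adjusted p of 0.323 (edgeR), and without female replicate 3 it was -0.095 (adjusted p = 0.791).

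miR-145a-5p, the guide arm that represses the pluripotency factor Klf4, had 303, 354 and 306 CPM in females, against 430, 249.6 and 453 CPM in males. The groups overlapped because male replicate 2 was the lowest of all 6 libraries, while the other male libraries were the highest. The log2 fold change of -0.24 had an SE of 0.21 and an adjusted p of 0.637 (edgeR). Without male replicate 2 it was -0.46 (SE 0.12) and the adjusted p was 0.0474 in edgeR, so that miR-145a-5p was then the only member called, beside 4.0% of 400 tested miRNAs called lower in females. Without male replicate 3 it was -0.086 (adjusted p = 0.905, edgeR), and without male replicate 1 it was -0.17. Of the passenger arms, miR-145a-3p averaged 45.8 ± 6.16 CPM in female and 52.4 ± 2.21 CPM in male libraries (SD, n = 3 each). miR-143-5p averaged 37.4 ± 7.43 CPM in female and 46.5 ± 16.1 CPM in male libraries, with male replicate 1 far above the rest at 65.1 CPM. Their log2 fold changes were -0.19 and -0.31, with adjusted p of 0.694 and 0.622 in edgeR. Without female replicate 3, miR-145a-3p was at -0.081, and without male replicate 1, miR-143-5p was at -0.019 (adjusted p = 0.991, edgeR).

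Summed over its 4 arms, the miR-143 and miR-145a locus gave 9229, 9093 and 7133 CPM in females, against 9500, 10193 and 9854 CPM in males. The mean difference was -0.22 on the log2 scale (exact two-sided permutation p = 0.1, the smallest that 3 libraries against 3 allow). Without female replicate 3 it was -0.10. With library totals the sums were 9709, 9370 and 7617 per 1000000 counts in females and 9342, 9350 and 9436 in males, and the groups overlapped.

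The miR-199 3p arm was the member sequence with the smallest p between the sexes. miR-199a-3p had 2022, 1760 and 1559 CPM in females, against 2343, 2425 and 2198 CPM in males, with no overlap of the groups. Its log2 fold change of -0.38 had an SE of 0.12 and an adjusted p of 0.0998 (edgeR), and with upper-quartile factors it was -0.48 and passed (adjusted p = 0.0462, edgeR), as 1 of 10 members beside 5.14% of all tested miRNAs called lower in females. The miR-199b-3p row, with the same sequence, stood at 1661, 1406 and 1302 CPM in females and 1868, 1910 and 1788 CPM in males (log2 fold change -0.35, SE 0.12, adjusted p = 0.132, edgeR). Because the rows cannot be told apart by sequence, their sum is the measured quantity. The sum came to 3683, 3166 and 2860 CPM in females, against 4211, 4334 and 3986 CPM in males. Fitted as a single row, the sum had a log2 fold change of -0.38 with an SE of 0.12 and an adjusted p of 0.0888 (edgeR).

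The 5p arms of miR-199 carry the difference between the a and b hairpins. miR-199a-5p, which targets caveolin-1 in human lung fibroblasts, had 272, 294 and 288 CPM in females, against 381, 264 and 296 CPM in males. The groups overlapped, and male replicate 1 stood apart at the high end. Its log2 fold change of -0.14 had an SE of 0.16 and an adjusted p of 0.726 (edgeR). It was -0.0016 without male replicate 1 and -0.25 without male replicate 2. miR-199b-5p was far lower, at 4.29, 8.03 and 7.41 CPM in females against 12.5, 8.27 and 9.53 CPM in males, from 26 to 29 counts per female library and 35 to 150 per male library. The groups did not overlap, although female replicate 2 and male replicate 2 differed by less than counting error. Its log2 fold change of -0.66 had an SE of 0.29 and an adjusted p of 0.261 (edgeR), and without female replicate 1 it was -0.41 (adjusted p = 0.530).

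miR-214 was near the lower limit of what these libraries measure. miR-214-3p, which represses the fibrogenic factor Ccn2 in stellate cells, had 5.62, 5.81 and 6.56 CPM in females and 6.97, 5.67 and 6.03 CPM in males. The groups overlapped, and its log2 fold change of -0.06 (SE 0.25) had an adjusted p of 0.935 in edgeR; with library totals it was 0.07, and with single libraries left out it ranged from -0.12 to -0.0067. miR-214-5p had 8, 7 and 8 counts in females, against 19, 12 and 44 counts in males, or 1.32, 1.94 and 2.28 CPM against 3.01, 2.83 and 2.80 CPM. No female value reached a male value, while the exact 95% Poisson interval for 8 counts ran from 3.45 to 15.8 counts. The log2 fold change of -0.69 had an SE of 0.34 and an adjusted p of 0.32 (edgeR), and without female replicate 1 it was -0.46. All female counts lay under 10 and all male counts lay above it. The filter's minimum count of 10 scales with library size, so a count under 10 can reach it in a smaller library.

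Summed over miR-199a, miR-199b and miR-214, the level was 3966, 3475 and 3165 CPM in females, against 4615, 4615 and 4301 CPM in males. Nearly all of it was miR-199, whose rows from 3 hairpins together exceeded miR-214 by a factor of 357 to 571 in counts. How much of this came from Mir199a-2, which shares a host RNA with Mir214, cannot be told from these counts. The mean difference between the sexes was -0.36 on the log2 scale (exact two-sided permutation p = 0.1). With library totals it was -0.22, and female replicate 1, at 4173 per 1000000 counts, then lay above male replicate 3, at 4118.

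miR-214-5p is left out of the next counts, because its female counts were all under 10. Its own groups did not overlap with TMM factors, upper-quartile factors or library totals. Of the other 9 members, 5 had every female value below every male value with TMM factors, beside 11.1% of all tested miRNAs. With library totals this held for 0 of the 9, beside 5.95% of all tested. With upper-quartile factors it held for 5, beside 17.8%. For these 9 members, the separation of the groups therefore depended on the scaling between libraries.

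Ratios within a library do not depend on that scaling. Against miR-126a-3p, an endothelial miRNA, the miR-199 and miR-214 sum had a ratio of 0.0797, 0.0724 and 0.0668 in females and 0.0892, 0.0895 and 0.0879 in males, with no overlap (log2 difference -0.29, exact two-sided permutation p = 0.1). Against the hepatocyte miR-122-5p, the ratios of this sum were 0.0126, 0.0110 and 0.0100 in females and 0.0134, 0.0119 and 0.0119 in males, and the groups overlapped (log2 difference -0.15, exact permutation p = 0.3). That difference was -0.075 without female replicate 3, -0.095 without male replicate 1 and -0.24 without female replicate 1. The miR-143 and miR-145a sum overlapped between the sexes against either denominator. Its ratio to miR-126a-3p averaged 0.175 ± 0.0214 in females and 0.194 ± 0.00937 in males (SD, n = 3 each), a log2 difference of -0.16 that was -0.050 without female replicate 3. Its ratio to miR-122-5p averaged 0.0269 ± 0.00376 in females and 0.0271 ± 0.000688 in males (SD, n = 3 each). With TMM factors miR-122-5p was itself lower in each female than in each male library (log2 fold change -0.21, adjusted p = 0.0530, edgeR). A ratio to it is therefore not a comparison with an unchanged reference. In 12 exact tests on sums, ratios and arm shares, the smallest adjusted p was 0.24.

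**Figure D3:**
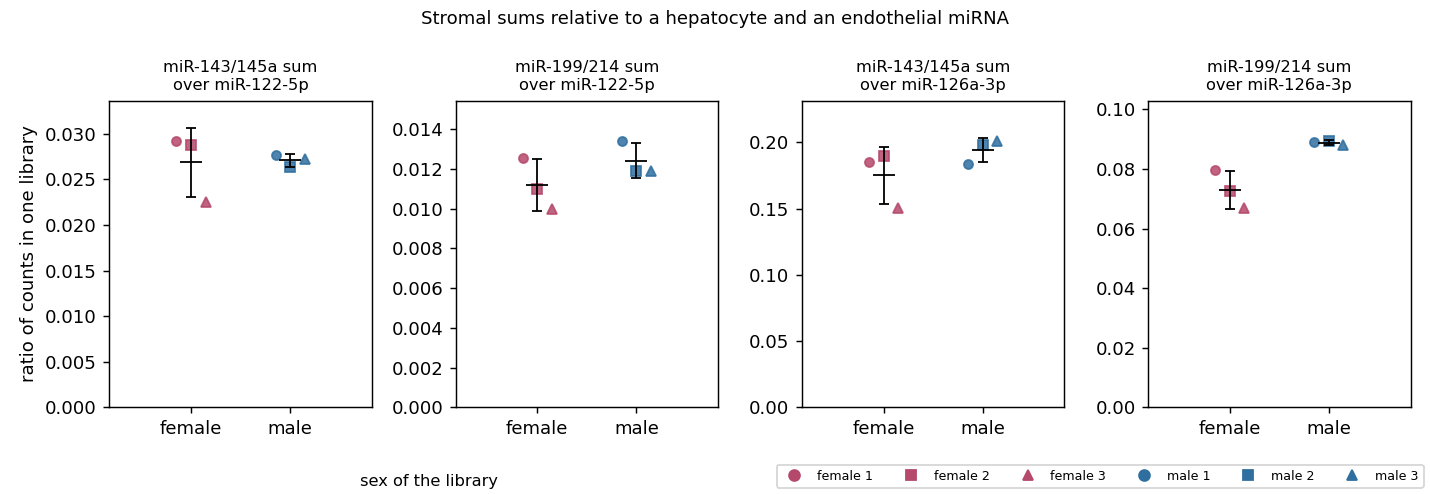
Summed counts of the miR-143 and miR-145a and miR-199 and miR-214 members over those of miR-122-5p (hepatocyte) and miR-126a-3p (endothelium) in the same library, with the mean and SD of 3 libraries per sex. The sexes are apart only in the rightmost panel, where females lie at 0.0668 to 0.0797 and males at 0.0879 to 0.0895.

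The ratio between the locus sums did not separate the sexes, while that between their most abundant arms did. Divided by the miR-143 and miR-145a sum, the miR-199 and miR-214 sum was 0.430, 0.382 and 0.444 in females and 0.486, 0.453 and 0.436 in males (log2 difference -0.13, exact two-sided permutation p = 0.2), and the difference was -0.068 without female replicate 2. With the shared miR-199 3p sequence over miR-143-3p in place of the sums, the groups did not overlap. The log2 difference was then -0.15 (exact two-sided permutation p = 0.1). Within the chromosome 18 locus, miR-145a arms came to 4.56 ± 0.552% of miR-143 arms in females and 4.60 ± 1.35% in males (SD, n = 3 each). Male replicate 2 held the lowest value, 3.04%.

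In 6 of 6 libraries the 3p arm held most counts of miR-143, miR-199 and miR-214, and the 5p arm most counts of miR-145a. The 5p arm took 0.459 ± 0.0413% of miR-143 counts in females and 0.499 ± 0.194% in males, against 87.5 ± 1.53% of miR-145a counts in females and 87.2 ± 3.74% in males (SD, n = 3 each). The miR-143 share was lowest in male replicate 2, at 0.365%, and highest in male replicate 1, at 0.722%. For miR-199, with the a and b rows of 3 hairpins summed, the 5p share was 6.99, 8.70 and 9.37% in females and 8.55, 5.91 and 7.12% in males. The 5p share of miR-214 was 19.0, 25 and 25.8% in females and 30.2, 33.3 and 31.7% in males, without overlap (exact two-sided permutation p = 0.1). Each miR-214 share rests on 28 to 139 counts, and the exact binomial 95% interval of female replicate 3, 11.9 to 44.6%, contains all 6 values. Male replicate 2 had the lowest 5p share of miR-143, miR-145a and miR-199 alike. Over 92 hairpins with both arms tested, this library had the lowest 5p share in 35.9% and the highest in 21.7%, as it had for miR-214, and its part in the miR-145a-5p result was not tested.

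**Figure D4:**
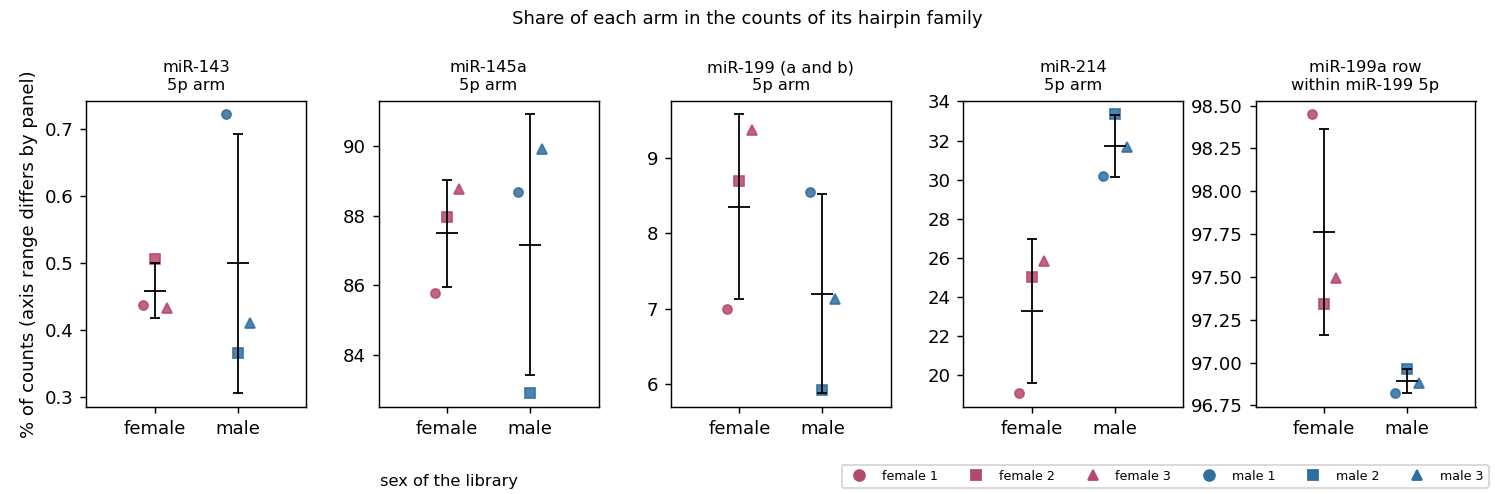
Percent of a hairpin family's counts on the 5p arm, and percent of miR-199 5p counts on the miR-199a row, for 3 libraries per sex with mean and SD. The vertical axis differs by panel and does not start at 0. Only miR-214 and the miR-199a row have no overlap between the sexes.

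The split between miR-199a and miR-199b differed by arm. On the 5p arm, the a and b sequences differ by a single base. There the miR-199a row held 98.4, 97.3 and 97.5% of counts in females and 96.8, 97.0 and 96.9% in males, higher in each female than in each male library (exact two-sided permutation p = 0.1, adjusted p = 0.24). Whether some miR-199b-5p counts were misread miR-199a-5p was not tested. The mean difference of the miR-199a share between the sexes was 0.87 percentage points, and 0.53 without female replicate 1. On the 3p arm, where the sequence is shared, the miR-199a row held 54.9, 55.6 and 54.5% in females and 55.6, 55.9 and 55.1% in males. The 3p rows thus stayed in nearly the same proportion in all 6 libraries, and this proportion was not that of the 5p rows. The sources used here do not say how reads that match both names were assigned.

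Deviations of log2 CPM from the 6-library mean showed how members moved together. Likeness is given as the root mean square difference of these deviations over 6 libraries, where a smaller value means more alike. It was 0.03 between the 2 rows of the shared 3p sequence and 0.07 between miR-143-3p and miR-145a-3p, both from the chromosome 18 locus. Between miR-143-3p and miR-199a-3p, from different chromosomes, it was 0.11. Arms of the same hairpin were less alike, at 0.31 for miR-143, 0.29 for miR-145a, 0.31 for miR-214 and 0.43 for miR-199b. The arms of miR-199a differed by 0.25, and miR-199a-5p and miR-214-3p by 0.10. Female replicate 3 was the lowest library for each 3p arm except miR-214-3p, and male replicate 1 was the highest for each 5p arm except miR-145a-5p.

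**Figure D5:**
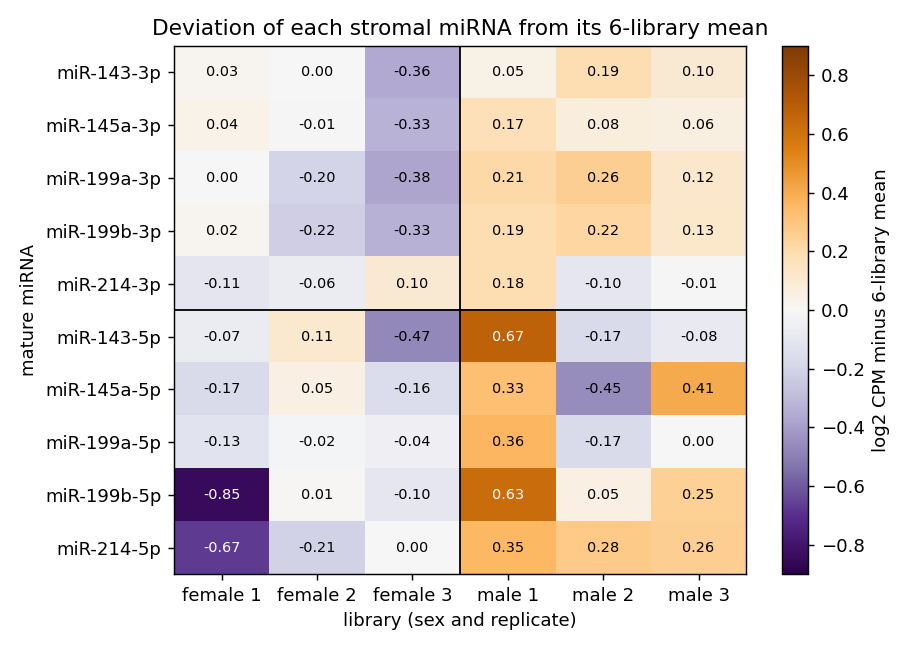
Log2 CPM of each stromal miRNA minus its mean over 6 libraries, with 3p arms above the horizontal line and 5p arms below it, females left of the vertical line and males right. The 3p arms of miR-143, miR-145a and miR-199 are low in female replicate 3, between -0.33 and -0.38, while several 5p arms are high in male replicate 1, up to 0.67.

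Outside the members, the profiles most like the miR-143 and miR-145a sum among 360 tested miRNAs were those of miR-200a-3p, miR-10a-3p and miR-598-3p, with root mean square differences of 0.08, 0.09 and 0.10 where the median was 0.32. The closest, miR-200a-3p, is on the list of biliary and epithelial markers used below. The profiles most like the miR-199 and miR-214 sum were those of miR-195a-5p, let-7e-5p and miR-125b-2-3p, at 0.10, 0.10 and 0.11 where the median was 0.33. The 2 sums differed from each other by 0.10. All of these share the same 6 libraries and their scaling.

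Other miRNAs with known roles in stellate cells were of mixed sign. Of 18 listed, all tested, 0 were called higher and 1 was called lower in females, beside 3.24% and 3.51% of all tested miRNAs. Of these 18, 11 had positive and 7 negative log2 fold changes, where 51.9% of all tested miRNAs were negative. The median was 0.05 beside -0.01 over all tested miRNAs. That median was 0.20 with library totals and -0.04 with upper-quartile factors. The list is not separate from the markers below: miR-150-5p and miR-155-5p are also leukocyte markers there, and miR-194-5p a hepatocyte marker. The miRNA that fell was miR-21a-5p, which is induced by TGF-beta signalling and fibrosis, with 63251 ± 6565 CPM in female and 95757 ± 8584 CPM in male liver (SD, n = 3 each). Its log2 fold change of -0.60 had an SE of 0.09 and an adjusted p of 0.00169 in edgeR. The other 2 of the most abundant were miR-16-5p at 0.08 and miR-29a-3p, of the collagen-repressing miR-29 family, at 0.01 on the log2 scale. The nearest of the list to the members was miR-195a-5p, of the miR-15 and miR-16 seed family, at -0.36 (adjusted p = 0.196, edgeR).

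Markers of other cells are given beside the members because whole liver was sampled. Over all tested miRNAs, 51.9% had a negative log2 fold change under TMM, and 3.24% were called higher in females. The summed endothelial level was 67777 to 71815 CPM in females and 68763 to 76034 CPM in males, with miR-126a-3p at a log2 fold change of -0.07, or 0.07 with library totals. Hepatocyte markers summed to 395347 to 398456 CPM in females and 421084 to 466099 CPM in males, a sum that is mostly miR-122-5p, at -0.21 (adjusted p = 0.0530, and 0.0128 without male replicate 1, edgeR). Of the 5 hepatocyte markers 3 were positive (2 with upper-quartile factors), with a median of 0.02 and a highest value of 0.44. Leukocyte markers summed to 6561 to 6747 CPM in females and 4896 to 6451 CPM in males. All 6 leukocyte markers were positive under TMM, upper-quartile and library-total scaling, with a median of 0.30 under TMM. Of these, miR-223-3p was higher in females at 0.62 (adjusted p = 0.0467, edgeR), and the most abundant, miR-142a-3p, stood at 0.24. The call of miR-223-3p was lost without female replicate 2, female replicate 3 or male replicate 3 (adjusted p = 0.14, 0.273 and 0.133, edgeR). Biliary and epithelial markers summed to 1575 to 1774 CPM in females and 1698 to 1994 CPM in males, all 6 of them negative (4 of 6 with library totals), with miR-31-5p at -0.14. Erythroid markers summed to 223.5 to 378 CPM in females and 235 to 275 CPM in males, all 4 of them positive (3 of 4 with upper-quartile factors), with miR-486a-5p at 0.03. Of the muscle markers miR-1a-3p stood at 0.06. Only miR-375-3p of the 3 pancreas markers was tested, and it passed the filter through its female libraries alone, so its call is no support for a difference. It had 4.79, 2.49 and 3.14 CPM in females against 1.42, 1.18 and 1.33 CPM in males. Its log2 fold change was 1.43 (adjusted p = 0.0438, edgeR), a call lost without any of the 6 libraries in turn (adjusted p from 0.0557 to 0.22, edgeR). The part of any other cell type in the stromal values was not tested.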

How the data were processed

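The authors deposited estimated counts of reads per mature miRNA in a single table for 6 libraries, without normalisation. The submitters' processing notes name Partek, Bowtie and mm10. The sources used here do not give versions, trimming, how reads with several matches were counted or whether molecular identifiers were collapsed. Such counts are relative: abundant miRNAs take reads from others. The table had 2045 rows, of which 138 exact repeats were left out, 2 of them repeats of members. Counts were rounded to whole numbers; all member values already were.

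Libraries were grouped by labelled sex and replicates numbered in accession order, which pairs no animals. Separate animals were taken as replicates. Titles number the male samples before the female ones, so sex and sample order cannot be told apart.

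Sexes were compared in edgeR 4.0.16 (R 4.3.3) with TMM factors, filterByExpr by group (minimum count 10, minimum total 15), the robust quasi-likelihood test and Benjamini-Hochberg adjustment at 0.05; log2 fold changes are female over male. The fit was also run on simulated data, where the nonzero changes set were larger than any estimated for a member. Its recovery of changes as small as those of the members was therefore not tested. A count stood for 0.0608 to 0.304 CPM before TMM adjustment. Sums, ratios and arm shares were compared with exact two-sided permutation tests (SciPy 1.17.1) over libraries. Poisson and binomial intervals are exact, at 95%, and cover counting error only. Alternatives were DESeq2 1.42.0, limma-voom (limma 3.58.1), RLE, upper-quartile and no factors, other filters, no robust option, summed identical sequences and each library left out. For ratios, the most abundant arm was also used in place of the sum.

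The members and lists were chosen with earlier results of these data known. Named were all members, holders of their seeds, listed stellate cell miRNAs past the threshold or among the 3 most abundant, the most abundant marker of each cell type and those past the threshold, and the 3 closest profiles per locus; miR-195a-5p in its list was chosen after its values were seen. Positions are from the table and GENCODE M21 of the same build, with the stop column read as the base after the end. Sequences are from RefSeq.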

Additional observations from a re-analysis of the deposited data

How the results depend on the processing

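No paired analysis was possible because the labels give no replicate numbers shared between the sexes. The count of members past the threshold was 0, and it was 1 with upper-quartile factors (miR-199a-3p), 0 in the other fits on all libraries and, with single libraries left out, 0 to 1 (miR-145a-5p without male replicate 2). The 25 miRNAs called over the whole table became 13 with a minimum count of 50, where fewer were tested, and 9 to 32 with single libraries left out, the lowest being 9 without female replicate 2, then 10 with female replicate 3 and 12 with male replicate 3 removed. Of the member values in 15 other fits, 142 kept direction and side of the threshold, 2 gained it and 1 changed sign, miR-214-3p at 0.072 with no factor. With a minimum count of 50, 7 members were left. Without a library, the miR-143 and miR-145a sum to miR-122-5p log2 ratio difference ranged from -0.087 to 0.10, the 5p share difference from -0.11 to 0.071 points for miR-143 and from -1.79 to 1.72 points for miR-145a; no other sum, ratio or share changed sign. Other named miRNAs that changed sign were, with upper-quartile factors, miR-16-5p -0.013, miR-29a-3p -0.083, miR-486a-5p -0.063 and miR-1a-3p -0.052, and with no factor miR-126a-3p 0.072 and miR-31-5p 0.0087. For miR-29a-3p the values were also -0.0055 with a minimum count of 50, -0.0098 with identical sequences summed, and with single libraries left out they ranged from -0.032 to 0.055. Likewise miR-486a-5p ranged from -0.14 to 0.41 and miR-1a-3p from -0.21 to 0.33. The call of miR-223-3p was lost in 6 fits and that of miR-375-3p in 9, while miR-122-5p passed in 5. The cause of these changes was not tested, apart from the shifts by scaling. Depth limits miR-214 and miR-199b-5p, with 7 to 150 counts per library.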
